A study of Mus musculus with 6 samples.

Results

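MHC class II molecules present peptides taken up from outside the cell to CD4+ T cells, and they are known from B cells, dendritic cells, macrophages and thymic epithelium. An alpha and a beta chain (H2-Aa with H2-Ab1, and H2-Eb1 with the E alpha chain) form the peptide-binding groove, and the invariant chain Cd74 fills it on the way to the endosome. There H2-DM (H2-DMa with H2-DMb1 or H2-DMb2) exchanges the remnant of Cd74 for a peptide, and H2-DO (H2-Oa with H2-Ob) inhibits H2-DM. Ciita is the coactivator that switches the genes on, and it acts through the RFX, CREB and NF-Y proteins bound to the X and Y boxes of their promoters. Some hematopoietic stem and progenitor cells are known to carry class II as well.

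These 10 genes (H2-Aa, H2-Ab1, H2-Eb1, Cd74, Ciita, H2-DMa, H2-DMb1, H2-DMb2, H2-Oa and H2-Ob) were taken by symbol from 53445 loci, and all 10 had reads in every library and passed the filter on low counts with 22032 loci tested. The data are poly(A) RNA-Seq of LSK cells (Lin-Sca+Kit+, the bone marrow fraction that holds the hematopoietic stem cells), sorted from female C57BL/6 mice of about 12 weeks. In the 3 OgaVav-Cre mice a floxed Oga, the enzyme that removes O-GlcNAc from proteins, is deleted by Vav-iCre. The Vav promoter is active throughout the blood system, so the deletion is not limited to LSK cells. The controls were 3 wildtype mice, and the alleles they carry are not given further in the labels. The labels give the number of a library as a name, and nothing in them ties replicate 3 of one genotype to replicate 3 of the other. Nothing in the labels states more than separate samples, so p-values set the genotype difference against the spread between libraries within a genotype.

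Library totals were 19318056 to 27064389 reads, and the libraries numbered 3 were the deepest of each genotype. Values are CPM (read counts scaled to the size of the library, with TMM factors), and a floor of 3 reads corresponds to 0.109 to 0.156 CPM. Oga, listed as Mgea5, had 104, 109 and 110 reads in the OgaVav-Cre libraries against 3164, 2970 and 2736 in wildtype. All 10 markers of LSK cells were detected in every library. Kit, the stem cell factor receptor, was at 251 to 542 CPM in the OgaVav-Cre mice against 372 to 602 CPM in wildtype. Ly6a, the gene of the Sca sort marker, was at 218, 114 and 100 CPM in OgaVav-Cre replicates 1, 2 and 3. In wildtype replicates 1, 2 and 3 Ly6a was at 48.5, 122 and 42.3 CPM, and the genotypes overlapped. Of the 10 LSK markers, 3 had a log2 fold change of OgaVav-Cre over wildtype above 0 and 7 below. All 10 B cell markers and all 10 plasma cell markers were detected in every library too, and the sum of Ighm, Igkc and Igj took 9.88, 4.14 and 1.17% of the reads in the OgaVav-Cre libraries, in the order of their numbers, against 2.05, 5.48 and 1.36% in the wildtype libraries.

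The promoter sequences are shown because class II genes are known for the short elements they share. They are the 150 bases before the start in RefSeq on GRCm38.p6, where 7 of the 10 genes have an entry and H2-Ab1, Cd74 and Ciita do not. Capitals mark the Y box core CTGATTGG, the CCAAT box (ATTGG on the opposite strand) and the X box core GNNACNGAT, searched on both strands. The Y box core contains ATTGG, so these matches overlap. H2-DMa has an entry but is not shown, and H2-Eb2, a further beta chain gene of the same region, is shown for comparison.
H2-Aa, chr17:34287824-34287973, minus strand: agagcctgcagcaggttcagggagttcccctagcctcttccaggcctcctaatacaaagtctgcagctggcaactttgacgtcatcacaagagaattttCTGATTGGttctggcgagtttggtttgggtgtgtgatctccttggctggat
H2-Eb1, chr17:34305717-34305866, plus strand: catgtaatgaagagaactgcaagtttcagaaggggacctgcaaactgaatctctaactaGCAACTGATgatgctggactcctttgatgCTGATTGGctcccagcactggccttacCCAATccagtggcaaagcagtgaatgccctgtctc
H2-Eb2, chr17:34325525-34325674, plus strand: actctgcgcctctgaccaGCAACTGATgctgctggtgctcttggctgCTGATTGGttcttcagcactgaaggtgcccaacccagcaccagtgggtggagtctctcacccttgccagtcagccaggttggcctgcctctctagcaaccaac
H2-DMb1, chr17:34153041-34153190, plus strand: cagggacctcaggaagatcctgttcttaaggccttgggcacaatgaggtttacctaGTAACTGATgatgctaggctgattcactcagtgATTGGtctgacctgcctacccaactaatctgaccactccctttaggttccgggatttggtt
H2-DMb2, chr17:34145099-34145248, plus strand: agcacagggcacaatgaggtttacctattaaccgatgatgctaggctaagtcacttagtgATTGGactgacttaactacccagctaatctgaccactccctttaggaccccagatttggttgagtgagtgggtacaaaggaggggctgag
H2-Oa, chr17:34092229-34092378, plus strand: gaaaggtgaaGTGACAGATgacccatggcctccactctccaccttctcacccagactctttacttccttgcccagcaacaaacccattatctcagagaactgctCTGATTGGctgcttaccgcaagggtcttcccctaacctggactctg
H2-Ob, chr17:34238755-34238904, plus strand: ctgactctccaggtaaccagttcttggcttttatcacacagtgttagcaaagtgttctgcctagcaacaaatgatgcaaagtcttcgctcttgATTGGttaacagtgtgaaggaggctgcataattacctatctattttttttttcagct

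The Y box core stood in H2-Aa, H2-Eb1, H2-Oa and H2-Eb2, with its first base 51, 62, 46 and 103 bases before the start, and in 3.16% of 32851 RefSeq promoters over the same 150 bases. A CCAAT box stood in all 7 stretches shown, H2-Eb2 included, and in 24.5% of the promoters over those bases. The X box core stood in H2-Eb1, H2-Eb2, H2-DMb1 and H2-Oa and in 3.82% of the promoters over those bases. The RefSeq windows run from 250 bases before to 50 after the start, and over these 300 bases the Y box core, the CCAAT box and the X box core stood in 4.1, 37.4 and 7.82% of all windows. In H2-Ob an X box core stood past the start, and neither window of H2-DMa held the Y or the X box core as spelled here. For H2-DMa a CCAAT box stood only at −198 from the start, farther out than 150 bases, and not in every window. These matches are letters in a window and were not tested as binding sites.

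The classical chains H2-Aa, H2-Ab1 and H2-Eb1 varied more between mice of one genotype than between the genotypes. H2-Aa (minus strand of chromosome 17, mm9 34406609 to 34424768) was at 95.1, 113 and 565 CPM in OgaVav-Cre replicates 1, 2 and 3 and at 121, 51.6 and 220.5 CPM in wildtype replicates 1, 2 and 3. The highest library of each genotype was the one numbered 3, and the genotypes overlapped. H2-Ab1 (plus strand, 34400172 to 34406363) stood at 102, 111 and 429 CPM against 110.4, 55.2 and 178 CPM. H2-Eb1 (plus strand, 34442812 to 34453619) stood at 61.2, 71.7 and 345 CPM against 83.8, 33.9 and 158 CPM. The order of the libraries differed between these genes only for wildtype replicate 1, which was above both lower OgaVav-Cre libraries for H2-Aa and H2-Eb1 and next to OgaVav-Cre replicate 2 for H2-Ab1. Wildtype replicate 2 was the lowest of all 6 libraries for each of them.

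The proportions of the 3 chains varied less between libraries than their levels. Per length, as the authors' RPKM, H2-Eb1 was 1.60 to 1.88 times H2-Aa in the 6 libraries, a 1.18-fold spread, while H2-Aa itself spread 10.95-fold in CPM. H2-Aa was 0.255 to 0.361 of H2-Ab1 per length, a 1.41-fold spread. This ratio was highest in the libraries numbered 3, at 0.361 in OgaVav-Cre and 0.339 in wildtype. The E alpha gene, listed as H2-Ea-ps and known to be inactive in C57BL/6 mice, had 1 read in OgaVav-Cre replicate 3 and 0 in the other 5 libraries, under the floor of 3 reads. H2-Eb2 stood at 7.18, 7.84 and 24.7 CPM against 8.06, 3.58 and 14 CPM, again highest in the libraries numbered 3.

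Cd74 (plus strand of chromosome 18, 60963502 to 60972306), which also has roles outside class II as a receptor chain, was the most abundant of the 10 genes. It was at 635, 345 and 1145 CPM in OgaVav-Cre replicates 1, 2 and 3 and at 319, 308 and 612 CPM in wildtype replicates 1, 2 and 3. Its share relative to the chains was not fixed. Per length it was 20.7, 9.43 and 6.27 times H2-Aa in the OgaVav-Cre libraries and 8.13, 18.5 and 8.59 times in wildtype, with the highest ratios in OgaVav-Cre replicate 1 and wildtype replicate 2. These were also the libraries of each genotype with the largest share of immunoglobulin reads, given above, and the part of plasma cells in this ratio was not tested.

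Ciita (plus strand of chromosome 16, 10480165 to 10527657) was the least abundant per length. It was at 10.4, 12.9 and 75.4 CPM in the OgaVav-Cre mice against 18.7, 8.40 and 48.1 CPM in wildtype. The library numbered 3 was thus 6.48 times the mean of the other 2 in OgaVav-Cre and 3.54 times in wildtype, the widest such gap in OgaVav-Cre among the 10 genes. The span of Ciita overlaps Dexi on the minus strand, and use of strand in the counting is not given in the sources used here.

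**Figure D1:**
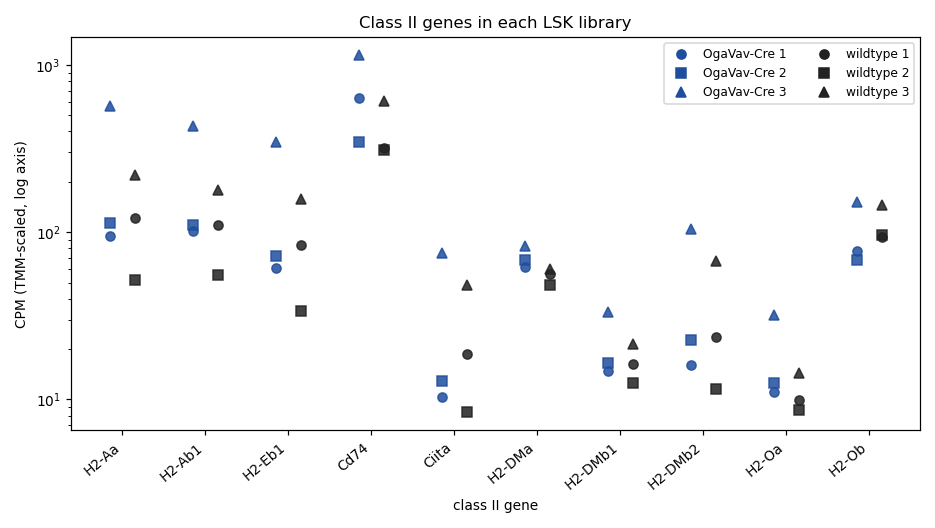
CPM (TMM-scaled, log axis) of the 10 class II genes, 1 point per library, with blue for OgaVav-Cre, black for wildtype and the marker shape for the replicate number. The triangle, replicate 3, is the highest point of its genotype for all 10 genes, from H2-Aa at 565 and 220.5 CPM to H2-DMa at 82.7 and 60 CPM.

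The peptide exchange subunits did not vary alike. H2-DMa, the alpha chain of H2-DM, was at 62, 68.6 and 82.7 CPM in the OgaVav-Cre mice against 56.6, 48.6 and 60 CPM in wildtype, a 1.70-fold spread and the narrowest of the 10 genes. H2-DMb1, one of its beta chains (plus strand of chromosome 17, 34290136 to 34297175), was at 14.8, 16.5 and 33.5 CPM against 16.2, 12.5 and 21.5 CPM. H2-DMb2, the other (34282216 to 34288498), was at 16.1, 22.6 and 104.6 CPM against 23.6, 11.5 and 67.6 CPM. It spread 9.08-fold, next to H2-Aa and H2-Eb1 rather than to its partner H2-DMa.

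Per length, H2-DMb2 was 0.938 and 1.19 times H2-DMb1 in OgaVav-Cre replicates 1 and 2 but 2.70 times in replicate 3, and 1.26 and 0.797 times in wildtype replicates 1 and 2 but 2.72 times in replicate 3. H2-DMb1 and H2-DMb2 are close paralogs, so reads may have been split between them and their separate values are uncertain. The table also lists H2-DMa with a span (34259777 to 34312350) that covers both beta chain genes.

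The H2-DO chains differed from each other. H2-Oa (34229324 to 34241430) was at 11.1, 12.6 and 32 CPM in the OgaVav-Cre mice against 9.98, 8.61 and 14.3 CPM in wildtype. H2-Ob (34375848 to 34390850), its beta chain, was at 77.6, 68.6 and 151 CPM against 93, 96 and 145 CPM. Per length, H2-Ob was 2.43, 1.90 and 1.64 times H2-Oa in the OgaVav-Cre libraries and 3.24, 3.87 and 3.52 times in wildtype, so this ratio was lower in every OgaVav-Cre library. The ratio was singled out after its values were seen and has no test. At 3 against 3 an exact two-sided permutation test cannot go below p = 0.1.

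Ordered by RPKM in wildtype, the levels were Cd74 at 262 ± 115 (SD, n = 3), H2-Ab1 at 85.9 ± 47.9, H2-Eb1 at 49.5 ± 34.6, H2-Ob at 29.2 ± 8.37, H2-Aa at 27 ± 18, H2-DMa at 25.3 ± 3.32, H2-DMb2 at 20.8 ± 18.3, H2-DMb1 at 11.6 ± 3.42, H2-Oa at 8.29 ± 2.46 and Ciita at 3.34 ± 2.80. Cd74 was above H2-Ab1 in every pairing of wildtype libraries, and every other neighbouring pair overlapped. In OgaVav-Cre, Cd74 was at 428 ± 259, H2-Ab1 at 155 ± 140 and Ciita at 4.23 ± 4.85 RPKM. The place of H2-Aa below its partner rests on the lengths in the table, 4381 bases for H2-Aa and 1199 for H2-Ab1.

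All 10 genes were highest of their genotype in both libraries numbered 3, against 15.9% of all 22032 loci tested. With a mean of at least 10 CPM, 5 of the 10 genes had a highest library at least 5 times the lowest (H2-Aa, H2-Ab1, H2-Eb1, Ciita and H2-DMb2), against 2.94% of 11876 loci. The 10 genes together took 0.0972, 0.0816 and 0.300% of all reads in the OgaVav-Cre libraries. Their share was 0.0883, 0.0633 and 0.166% in the wildtype libraries. The 95% Wilson interval of the highest share was 0.298 to 0.302%, and such intervals cover counting error only.

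**Figure D2:**
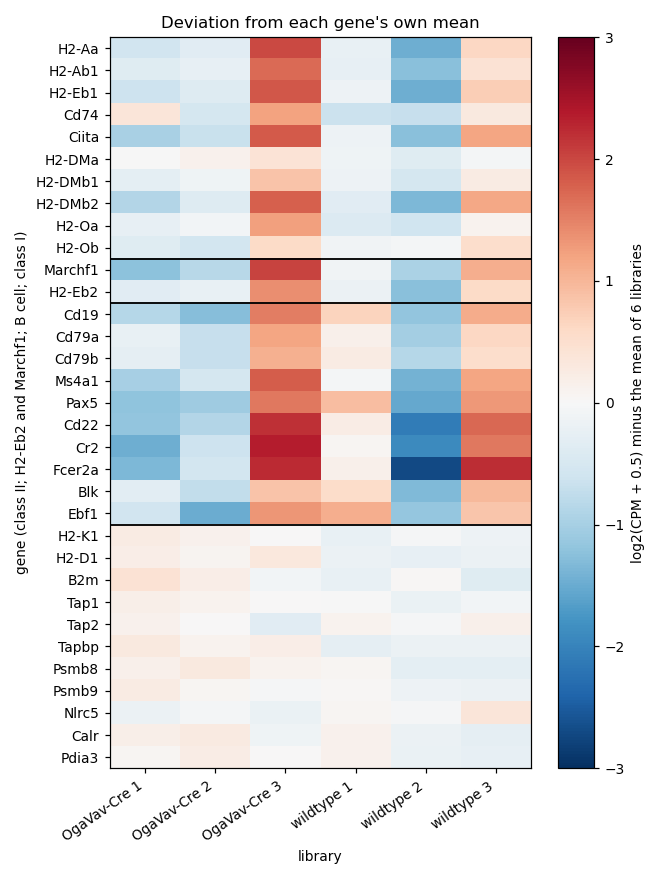
Deviation of each gene (rows) in each library (columns) from its own mean over the 6 libraries, as log2(CPM + 0.5), for the 10 class II genes, Marchf1 and H2-Eb2, 10 B cell markers and 11 class I genes, with red above and blue below the mean. The class II genes and the B cell markers are above their mean in both libraries numbered 3, except H2-DMa, which is near its mean in wildtype replicate 3, and the class I genes are pale throughout.

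No class II gene passed the test between the genotypes. By edgeR's quasi-likelihood test, 0 of 10 passed both thresholds (adjusted p below 0.05, log2 fold change past 1 either way), against 0.0318% of all loci tested. The smallest adjusted p of the 10 was 0.449. At an unadjusted p below 0.05, 1 of 10 (H2-DMa) was higher in OgaVav-Cre, against 4.38% of the loci, and none was lower, against 6.27%. DESeq2's Wald test called 0 of 10 and put 2 (H2-DMa and H2-Oa) at an unadjusted p below 0.05, against 0.315% and 6.72% of its loci, and limma-voom called 0 and put 1 there, against 0.0227% and 10.9%.

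H2-DMa had a log2 fold change of 0.37 (SE 0.147, edgeR adjusted p = 0.449), and its lowest OgaVav-Cre value was above its highest wildtype value. It was the only one of the 10 genes whose genotypes did not overlap, while 7.5% of all loci tested were higher without overlap and 9.97% lower. Of the chains, H2-Aa had 0.97 (SE 0.756, edgeR adjusted p = 0.651), H2-Ab1 0.90 (SE 0.623) and H2-Eb1 0.79 (SE 0.754). Cd74 had 0.78 (SE 0.445), H2-Oa 0.76 (SE 0.420), H2-DMb2 0.48 (SE 0.819), Ciita 0.39 (SE 0.854), H2-DMb1 0.37 (SE 0.344) and H2-Ob −0.17 (SE 0.319). The median of the 10 was 0.62, with 9 above 0 and 1 below, beside a median of 0.0041 over all loci tested.

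The median changed sign only when OgaVav-Cre replicate 3 alone was left out. Without OgaVav-Cre replicate 3 it was −0.22, without wildtype replicate 3 it was 1.22, and without both, an alternative added after seeing the data, it was 0.22. Cd74, H2-DMa and H2-Oa were above 0 with each library left out in turn, and the other 7 changed sign in at least 1 such fit. In bulk RNA, fewer cells with a transcript and less of it per cell cannot be told apart.

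**Figure D3:**
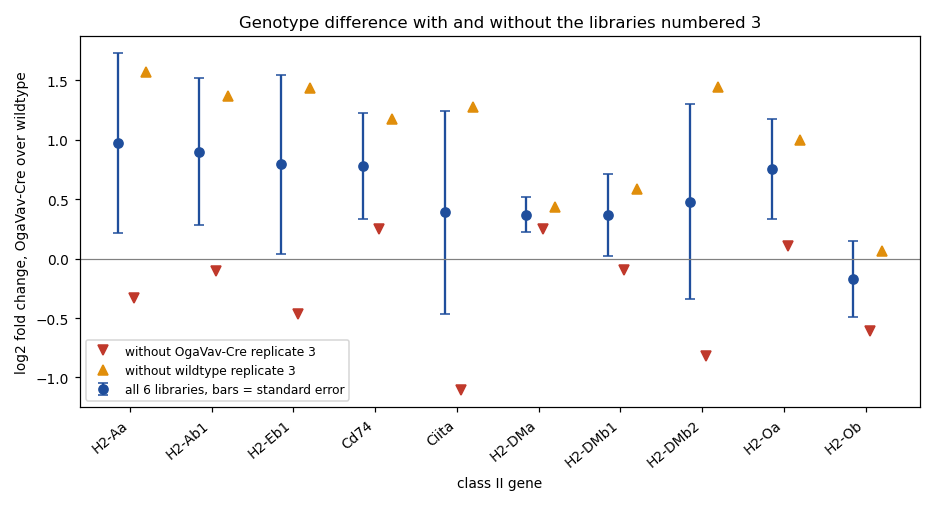
Log2 fold change of OgaVav-Cre over wildtype for each class II gene with all 6 libraries (circles, bars are the standard error) and without OgaVav-Cre replicate 3 or wildtype replicate 3 (triangles). For H2-Aa the value is 0.97 with all libraries, −0.33 without OgaVav-Cre replicate 3 and 1.57 without wildtype replicate 3.

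The DNA-binding partners of Ciita spread less between libraries than Ciita itself, at most 1.64-fold (Nfyb) against 8.97-fold. Of 7 tested (Rfx5, Rfxap, Rfxank, Nfya, Nfyb, Nfyc and Creb1), 0 were highest in both libraries numbered 3, against 15.9% of all loci tested. Between genotypes 0 were called, against 0.0318% of the loci, with 2 above 0, 5 below and a median log2 fold change of −0.12. Rfx5, a subunit of the RFX complex on the X box, was at 73.4, 61.1 and 60 CPM in the OgaVav-Cre mice against 58.4, 84.6 and 80 CPM in wildtype. Rfxap, a second subunit, was at 9.40, 13.1 and 11.8 CPM against 14.6, 13.1 and 14.7 CPM. Neither was high in both libraries numbered 3.

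Among 12 upstream genes (with interferon gamma receptor chains, Jak kinases, Irf factors, Spi1, Socs1 and Prdm1 among them), 0 were called, against 0.0318% of all loci tested. Of these genes 9 were above 0 and 3 below, with a median of 0.063. Highest in both libraries numbered 3 were 5 of 12, against 15.9% of all loci tested. Irf8, a transcription factor of the B cell and dendritic cell lineages, was at 155, 111 and 699.5 CPM in the OgaVav-Cre mice against 303, 114 and 163 CPM in wildtype, high in OgaVav-Cre replicate 3 but not in wildtype replicate 3. Prdm1, which represses Ciita in plasma cells, was at 60.4, 28.4 and 12.7 CPM against 14.8, 35 and 13.4 CPM, lowest in both libraries numbered 3. Socs1, an inhibitor of Jak signaling, was at 8.03, 7.60 and 11.6 CPM against 4.78, 6.48 and 6.94 CPM, with each OgaVav-Cre library above wildtype and an edgeR adjusted p that did not pass.

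Of 8 genes listed for antigen processing, 0 were called, 5 were above 0 and 3 below, with a median of 0.13. Of these, 4 of 8 (Ctsb, Ctsd, Lgmn and Ifi30) were highest in both libraries numbered 3. Ifi30, the reductase that opens disulfide bonds of antigens, was 3.88 times the mean of the other 2 libraries in OgaVav-Cre replicate 3 and 2.03 times in wildtype replicate 3. Ctss, the protease that trims Cd74 in B cells and dendritic cells, was at 185, 94.9 and 154 CPM in the OgaVav-Cre mice against 86.5, 133 and 89.2 CPM in wildtype, and was not highest in either library numbered 3. Ctsl, its counterpart in thymic epithelium, was at 23.5, 23.9 and 101 CPM against 25.9, 29.2 and 25.6 CPM, high in OgaVav-Cre replicate 3 alone. Of 6 genes of turnover and co-stimulation, 0 were called, 3 were above 0 and 3 below, with a median of 0.076. Highest in both libraries numbered 3 were 5 of 6. Beside the counts of these lists, 0.0318% of all loci tested were called and 15.9% were highest in both libraries numbered 3. Marchf1, the ubiquitin ligase that removes class II from the surface, was at 7.63, 10.3 and 76.9 CPM against 17.2, 9.39 and 40.1 CPM, high in the same libraries as Ciita. Its relative Marchf8 was at 26.3, 25.7 and 18.9 CPM against 25.1, 29.3 and 26.7 CPM.

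The loci most like the class II pattern were ranked by the root mean square difference of their log2 deviations from the mean deviation of H2-Aa, H2-Ab1, H2-Eb1 and Cd74 over the 6 libraries. LOC641240 came first at 0.067, but its span lies inside that of H2-Ab1, so the same reads may be counted in both. Then came Hvcn1, a proton channel of B cells and phagocytes, at 0.134, H2-Eb2 at 0.156, Fcrl1, a B cell surface receptor, at 0.208 and Grap2, an adaptor of T cell receptor signaling, at 0.248. Hvcn1 was at 54.5, 52.9 and 196 CPM in the OgaVav-Cre mice against 60.2, 34.5 and 109 CPM in wildtype. On the same measure H2-Ab1 was at 0.076, H2-Aa at 0.202, H2-Eb1 at 0.210 and Cd74 at 0.432. The other class II genes ran from 0.356 (H2-DMb2) to 0.719 (H2-DMa), farther off than Grap2. The median of the 11866 loci ranked was 0.933. With 6 libraries such a likeness is a description.

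Markers of B cells moved with the class II genes. Of 10 markers, 9 were highest in both libraries numbered 3, against 15.9% of all loci tested, and none was at 0 in any library. Their summed level was 257 to 1321 CPM in the OgaVav-Cre mice against 200 to 949 CPM in wildtype, with the highest sum of each genotype in the library numbered 3. Ms4a1 (CD20) was at 32.1, 44.6 and 228 CPM in the OgaVav-Cre mice against 62.5, 24.1 and 148 CPM in wildtype. Fcer2a (CD23), a marker of mature B cells, was at 4.26, 7.84 and 56.7 CPM against 13 and 1.35 CPM in wildtype replicates 1 and 2 and 55.3 CPM in replicate 3. Their part in the class II values was not tested.

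Other lists moved with the pattern in part. Of 10 macrophage or monocyte markers, 8 were highest in both libraries numbered 3, against 15.9% of all loci tested. Their summed level was 269 to 1076 CPM in the OgaVav-Cre mice against 637 to 1016 CPM in wildtype. C1qa, a complement subunit made by macrophages, was at 22.9 CPM in OgaVav-Cre replicate 3 and 30.8 CPM in wildtype replicate 3, against 3.33 to 10.1 CPM in the other 4 libraries. Of 10 dendritic cell markers 2 were highest in both, with sums of 411 to 813 CPM in the OgaVav-Cre mice against 344 to 462 CPM in wildtype. Flt3, which the LSK list also holds, gave much of that sum. Without it the other 9 summed to 61.4, 55 and 611 CPM in the OgaVav-Cre libraries and 188, 77.6 and 92.6 CPM in the wildtype libraries, highest in OgaVav-Cre replicate 3 and in wildtype replicate 1. The sum of the 10 LSK markers was lowest, at 1193 CPM, in OgaVav-Cre replicate 3 and between the other libraries, at 2033 CPM, in wildtype replicate 3. The part of these cells in the class II values was not tested either.

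Genes of class I presentation lie partly in the same region of chromosome 17. They spread at most 1.73-fold between libraries (B2m), close to the 1.70-fold of H2-DMa, the narrowest class II gene. Of 11 tested, 1 (H2-D1) was highest in both libraries numbered 3, against 15.9% of all loci tested. A highest library at least 5 times the lowest was seen for 0, against 2.94% of loci with a mean of at least 10 CPM. None was called between genotypes, against 0.0318% of all loci tested, with a smallest adjusted p of 0.412 by edgeR. The log2 fold change was above 0 for 9 and below for 2, with a median of 0.21. At an unadjusted p below 0.05, 3 of 11 were higher in OgaVav-Cre, against 4.38% of all loci tested. Without overlap, 5 of 11 were higher (H2-K1, H2-D1, Tap1, Tapbp and Psmb8), against 7.5% of the loci, and 1 (Nlrc5) was lower, against 9.97%. Tapbp (tapasin, which loads peptide on class I) was at 230, 203 and 215 CPM in the OgaVav-Cre mice against 157, 167 and 167 CPM in wildtype, and H2-D1, a class I heavy chain, at 879, 814 and 952 CPM against 674, 651 and 680 CPM. Psmb8, a subunit of the immunoproteasome, was at 165, 183 and 159 CPM against 154, 121.5 and 122.5 CPM, and Nlrc5, the class I counterpart of Ciita, at 48.6, 52.8 and 47.7 CPM against 57.4, 53.8 and 71 CPM.

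Over the 249 kb from H2-Oa to H2-Eb2 in mm9, class II genes thus lay on both sides of genes of narrow spread. The 5 named genes outside class II there with at least 10 CPM were Brd2, a chromatin reader, and the class I genes Psmb9, Tap1, Psmb8 and Tap2. Their highest library was 1.08 to 1.5 times the lowest. The 8 class II genes of the list in the same stretch spread from 1.70-fold (H2-DMa) to 10.95-fold (H2-Aa), and H2-Eb2 spread 6.91-fold.

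**Figure D4:**
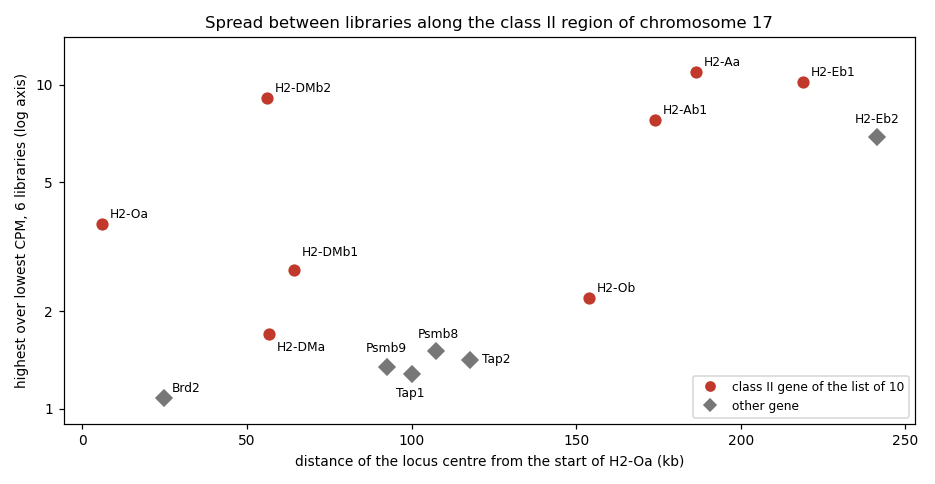
Highest over lowest CPM of the 6 libraries (log axis) for the named genes between H2-Oa and H2-Eb2, by distance of the locus centre from the start of H2-Oa in kb, with circles for class II genes of the list and diamonds for other genes. Brd2, Psmb9, Tap1, Psmb8 and Tap2 lie between 1.08 and 1.5, below every class II gene.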

How the data were processed

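Libraries of poly(A) RNA were read by the authors from one end (50 bp), aligned to mm9 and counted per locus with Genomatix. The processing notes of the submitters name CASAVA 1.8.2. Versions of the aligner, the counting and the annotation, and use of strand, are not given in the sources used here. The deposited table holds raw counts per locus and library, and RPKM that the authors derived from the counts and locus length. Columns of the authors' own genotype comparison (fold changes and p-values) and their normalized expression were not used.

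The 10 genes and the gene lists were chosen with earlier results of these data known. Counts of all loci were fitted in R 4.3.3 with edgeR 4.0.16 (TMM, filterByExpr, quasi-likelihood test, genotype as the single term), with Benjamini-Hochberg adjustment over 22032 loci. A call needed both an adjusted p below 0.05 and a change past 1 on the log2 scale. The text names the 10 genes, up to 4 genes with the smallest p of each pathway list, H2-Ea-ps and H2-Eb2, loci of the class II region, Mgea5 and the 5 most alike loci with a mean of at least 10 CPM. Ifi30, B2m and the marker genes named outside this rule were chosen after their values were seen. The values of 1 gene of the upstream list are not reported here.

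Alternatives were RLE scaling, no filter or a minimum of 10 reads per library, the DESeq2 1.42.0 Wald test, limma-voom and RPKM with limma-trend (limma 3.58.1, pseudocount 0.1 or 1), the replicate number as a block, the immunoglobulin share as a covariate and each library left out. On simulated data of this comparison with 22030 loci, edgeR recovered 48% of loci changed by a log2 fold of 1.5 and 92% at 3, with 6.67% of its calls false. The changed loci were drawn at random, so these rates do not describe genes as variable as H2-Aa. Python 3.11.15 with pandas 2.3.3 and matplotlib 3.10.9 made the tables and plots.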

Additional observations from a re-analysis of the deposited data

How the results depend on the processing

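The count of class II genes called between genotypes was 0, and so was that of the pathway lists, in each of the 16 alternatives. The median log2 fold change of the 10 genes was −0.22 to 1.22 with each library left out, and it kept its sign in the others, from 0.22 to 0.98. With each library left out, H2-Aa ran from −0.33 to 1.57, H2-Ab1 from −0.10 to 1.37, H2-Eb1 from −0.47 to 1.44, Ciita from −1.11 to 1.28, H2-DMb1 from −0.095 to 0.59, H2-DMb2 from −0.82 to 1.44 and H2-Ob from −0.61 to 0.068. Each low value was without OgaVav-Cre replicate 3 and each high value without wildtype replicate 3. Ciita was also −0.22 without both libraries numbered 3, chosen after seeing the data. The cause was not tested.

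Whether the replicate numbers pair the samples is not known. Deviations of same-numbered libraries correlated at −0.081, 0.26 and 0.316, and those of differently numbered libraries at −0.381 to 0.206. With 3 libraries per genotype these values cannot decide it. With the replicate block the median was 0.48, 0 genes were called, and 4 (Cd74, H2-Ab1, H2-DMa and H2-Oa) were at an unadjusted p below 0.05, as were 12.4% of all loci in that fit, with a smallest edgeR adjusted p of 0.349. With the immunoglobulin share as a covariate the median was 0.98, 6 genes were at an unadjusted p below 0.05, as were 9.08% of all loci in that fit, and the smallest edgeR adjusted p was 0.455. Each of the 10 genes was above the floor of 3 reads in every library.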

Other observations

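Markers of T or innate lymphoid cells were, like the class II genes, highest in OgaVav-Cre replicate 3, but in wildtype their sum was highest in replicate 1. Of 9 T or innate lymphoid markers found in the table, 1 was highest in both libraries numbered 3, against 15.9% of all loci tested. Their summed level was 87 to 337 CPM in the OgaVav-Cre mice against 99.1 to 231 CPM in wildtype. Cd4 was at 20.8, 13.7 and 72.7 CPM in OgaVav-Cre replicates 1, 2 and 3 and at 17.6, 10.7 and 12.1 CPM in wildtype. Siglech, a receptor of plasmacytoid dendritic cells, was at 34.8, 31.3 and 448.5 CPM against 120.4, 41.8 and 37 CPM, and Cd209a, a marker of monocyte-derived dendritic cells, at 1.15, 0.989 and 28.8 CPM against 4.03, 3.37 and 4.27 CPM. Without Flt3, 8 of 9 dendritic cell markers were highest in OgaVav-Cre replicate 3 and 2 of 9 in wildtype replicate 3. The exception in OgaVav-Cre was Xcr1, at 2.75, 0.673 and 0.803 CPM against 9, 3.32 and 1.73 CPM. Ccr7, also found on lymphocytes, was highest in both libraries numbered 3, at 8.47, 9.10 and 50.7 CPM against 15.2, 7.63 and 26.3 CPM. These genes were chosen after their values were seen. The 10 plasma cell markers summed to 12510, 5980 and 1806 CPM in the OgaVav-Cre mice against 2966, 8223 and 1858 CPM in wildtype, lowest in both libraries numbered 3.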
